A study of Homo sapiens with 8 samples.

Results

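The genes described here are 10 targets of p53 with metabolic, redox or growth-restraining roles: the sestrins SESN1, SESN2 and SESN3, PHLDA3, TIGAR, FDXR, TP53I3, TP53INP1, SPATA18 and ZMAT3. They were taken from a fixed list of gene symbols matched to Ensembl identifiers, 10 of the 34618 genes in the tables, by their known roles and not by a cutoff on measured values. This list and the related lists below were, however, chosen with earlier results of these data known. Of the 10, 9 passed the low count filter and were among the 15286 genes tested. SPATA18 did not pass it and is described by its counts alone.

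p53 is a transcription factor that is held low by MDM2 and accumulates after DNA damage, replication stress and other insults. Besides genes for cell cycle arrest and cell death, it switches on genes that slow growth signalling, lower reactive oxygen species and adjust mitochondrial and sugar metabolism. Sestrins restrain mTORC1, the kinase complex that couples nutrients to growth, and support the reduction of peroxides, while the other 7 genes act on AKT signalling, glycolysis, mitochondrial electron transfer, autophagy and RNA processing.

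RNA was measured by stranded, poly(A)-selected sequencing in 8 libraries. The labels name the cells as THP1, which is a line from a human acute monocytic leukaemia. The 4 RRM2_OE libraries came from cells carrying the iRxI/AxA mutant, which the labels call RRM2 OE, and the 4 MOCK libraries from cells with an empty vector. All cells, in both groups, received doxycycline at 2 µg/mL in RPMI with Tet-approved serum. RRM2 encodes the smaller of the subunits of ribonucleotide reductase, the source of deoxyribonucleotides for DNA synthesis, and the series asks how its hyperactivation acts on the differentiation block of acute myeloid leukaemia. The sources used here do not give the promoter driving the construct, the duration of treatment, or whether each line was a clone or a pool. They also leave unsaid whether replicates came from separate cultures; if not, a p-value reflects technical spread among these libraries alone.

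Library totals ran between 10994255 and 11686152 counts. RRM2 itself lay at 215 to 235 CPM (counts scaled to the same library size) in RRM2_OE and at 116 to 128 CPM in MOCK. THP1 is commonly described as lacking CDKN2A, yet CDKN2A was at 48.8 to 55.4 CPM in RRM2_OE and at 44.5 to 56.2 CPM in MOCK, so the name THP1 is used here only as the label. Of 12 monocytic markers, 11 were detected well enough to test, but CD68 stayed between 0.348 and 1.125 CPM in RRM2_OE and between 0.265 and 1.055 CPM in MOCK. GATA1, an erythroid and megakaryocyte factor, was at 96.0 to 113 CPM in RRM2_OE and at 95.9 to 114 CPM in MOCK. The summed level of the 12 monocytic markers was 3973 to 4034 CPM in RRM2_OE and 4112 to 4258 CPM in MOCK, with MPO lower in RRM2_OE and LYZ, ITGAM, CD14 and CSF1R higher. The summed level of 10 erythroid and megakaryocyte markers was 779 to 901 CPM in RRM2_OE and 834 to 1025 CPM in MOCK, with PF4 at or near 0. Of the 9 tested, 3 (ALAS2, HBG1 and HBG2) were lower and 2 (PPBP and ITGA2B) higher, with a median log2 fold change of -0.42. For 10 lymphoid markers it was 254 to 268 CPM in RRM2_OE and 276 to 296 CPM in MOCK, with MS4A1 at or near 0. Of the 7 tested, IGLL1 was lower, at 54.1 to 59.0 CPM in RRM2_OE and 146 to 162 CPM in MOCK, whereas 5 (IL7R, CD3D, CD8A, NKG7 and CD79A) were higher, and the median log2 fold change was 0.62. For 9 epithelial and fibroblast markers it was 42.4 to 46.6 CPM in RRM2_OE and 38.1 to 44.3 CPM in MOCK, with KRT19 at 0 in all 8 libraries, and 1 of the 3 tested, PDGFRB, was higher. The part of these marker shifts in the results below was not tested, and in bulk RNA a change in the share of cells expressing a gene cannot be told apart from a change in RNA per cell.

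Upstream sequence was at hand for 8 of the 10 genes, as 12 windows of 250 bases before a RefSeq start site (GRCh38.p14); PHLDA3 and TP53INP1 were not matched. The windows were searched on both strands for the p53 decamer, the 10-base unit of which a full p53 element holds a pair. It occurred in 2 of the 12 windows, in front of SESN1 and FDXR, and in 5.57% of all 35116 windows of that length. A match of letters is a description and not evidence of binding, and no match in the other windows says nothing of sites elsewhere. The stretches with the match are shown because they are the only such matches among the genes described, and capitals mark the decamer, on the strand of the gene.

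SESN1, minus strand of chr6:109008989-109009108, decamer at -49 to -40 from the start site: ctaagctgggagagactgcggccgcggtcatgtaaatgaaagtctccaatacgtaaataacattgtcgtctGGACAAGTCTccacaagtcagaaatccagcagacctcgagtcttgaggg

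FDXR, minus strand of chr17:74872995-74873024, decamer at -11 to -2 from the start site: ggcgggcccgggcaggagcGGGCTTGCCCt

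The SESN1 stretch overlaps no exon annotated in GENCODE 29 and lies within the span of longer SESN1 transcripts that start farther upstream, whereas the FDXR stretch falls in an exon of some FDXR transcripts.

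Across the tested genes of the list, 6 of 9 were higher in RRM2_OE and 0 were lower at an adjusted p below 0.05, by the quasi-likelihood test of edgeR with p-values adjusted over all genes (Benjamini-Hochberg). None of the 9 was lower at an unadjusted p below 0.05 either, or by DESeq2 or limma-voom. Among all 15286 genes the test called 7.41% higher and 5.42% lower. SESN1, SESN2, PHLDA3, FDXR, TP53INP1 and ZMAT3 rose, and TIGAR, TP53I3 and SESN3 did not pass the test. The median log2 fold change of the 9 genes was 0.34, against -0.0028 over all genes tested. In 7 of the 9, all 4 RRM2_OE libraries lay above all 4 MOCK libraries, which held for 10.5% of all genes tested. With replicate number as a block, 8 of the 9 were higher and 0 lower, since TIGAR and TP53I3 then passed; in that fit 15.1% of all genes were higher and 14.0% lower.

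**Figure D1:**
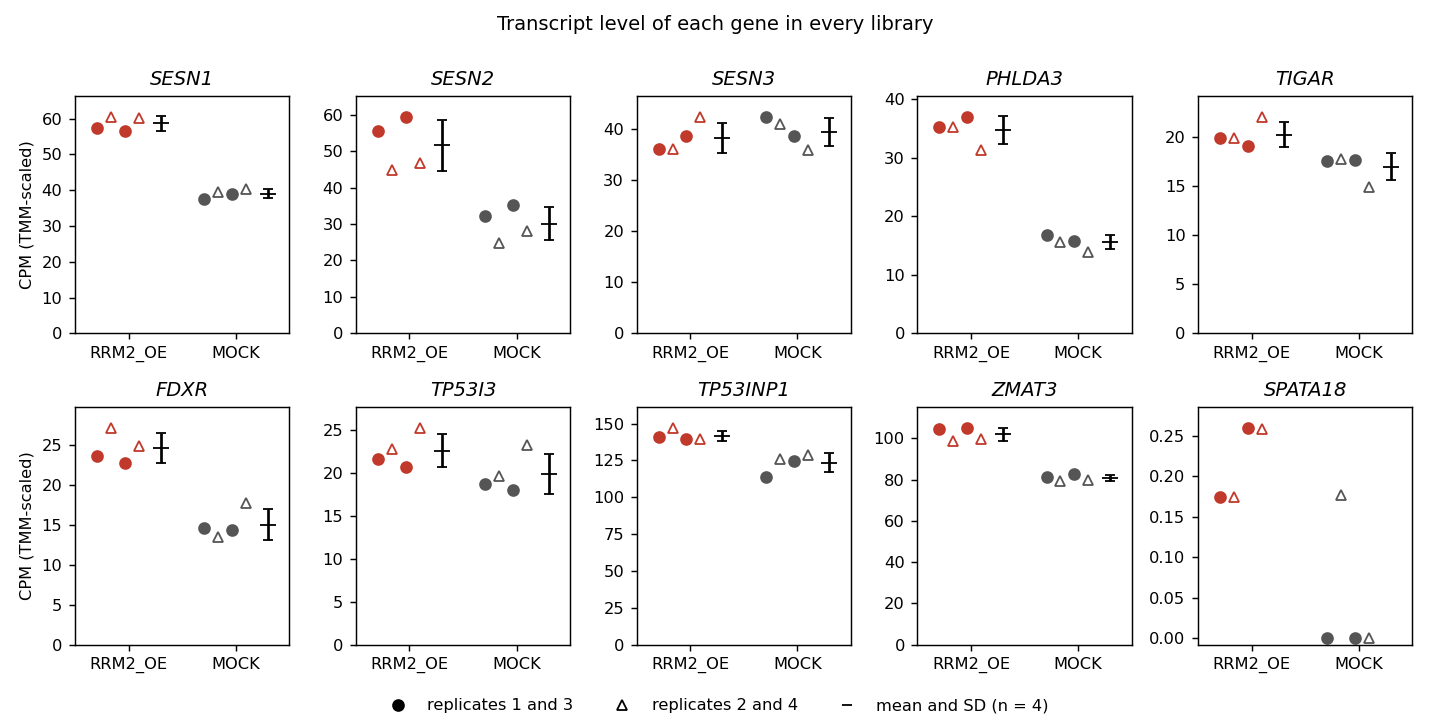
CPM of each of the 10 genes (vertical axes, each from its own 0) in the RRM2_OE and MOCK libraries, with filled circles for replicates 1 and 3, open triangles for replicates 2 and 4, and the mean with SD of 4 libraries beside them, except for SPATA18. The groups are separate for 7 of the 9 genes tested and overlap for SESN3 and TP53I3.

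SESN1 and SESN2 rose, and SESN3 did not. Sestrins are stress-inducible proteins that bind the GATOR2 complex and thereby hold back mTORC1 when leucine is scarce. SESN1 (ENSG00000080546, hg19 chromosome 6, 109307640 to 109416022, minus strand), known as a p53 target, had 57.4, 60.4, 56.6 and 60.3 CPM in RRM2_OE replicates 1 to 4, against 37.4, 39.6, 38.9 and 40.3 CPM in MOCK replicates 1 to 4. The groups did not overlap, and the lowest RRM2_OE library was well above the highest MOCK library. The change was 0.59 on the log2 scale (SE 0.05, 1.502-fold, adjusted p = 2.41e-05, edgeR). With its coefficients of variation of 3.35% in RRM2_OE and 3.119% in MOCK, SESN1 was among the steadiest of the 10.

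SESN2 (ENSG00000130766, chromosome 1, 28586038 to 28609002, plus strand), which responds to p53 and also to ATF4, had 55.5, 44.8, 59.3 and 46.7 CPM in RRM2_OE, against 32.2, 24.8, 35.3 and 28.2 CPM in MOCK. Every RRM2_OE library was above every MOCK library, but in both groups replicates 1 and 3 were higher than replicates 2 and 4. SESN2 rose by 0.78 on the log2 scale (SE 0.12, 1.71-fold, adjusted p = 0.00142, edgeR). Its coefficient of variation, 13.5% in RRM2_OE and 15.2% in MOCK, was the largest among the 9 genes tested in each group. In a fit with a term for odd against even replicate number, SESN2 was 0.34 higher on the log2 scale in odd than in even replicates (SE 0.05, adjusted p = 1.60e-06, edgeR). The SE of its group difference was 0.05 in that fit, and the group difference was unchanged at 0.78.

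SESN3 (ENSG00000149212, chromosome 11, 94898704 to 94965705, minus strand), a sestrin known as a FOXO target, had 36.1, 36.1, 38.8 and 42.4 CPM in RRM2_OE, against 42.4, 41.1, 38.8 and 36.0 CPM in MOCK. The groups overlapped over nearly their whole range. The log2 fold change was -0.04 (SE 0.07, adjusted p = 0.757, edgeR).

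The sestrins were compared with each other within each library, where scaling between libraries cancels. The SESN2 to SESN3 log2 ratio of CPM averaged 0.42 ± 0.24 in RRM2_OE and -0.40 ± 0.24 in MOCK, and the SESN1 to SESN3 ratio averaged 0.62 ± 0.11 in RRM2_OE and -0.02 ± 0.14 in MOCK (SD, n = 4 each). Both differences, 0.82 and 0.63, reached p = 0.0286 in an exact two-sided permutation test over 70 arrangements, the smallest p this design allows (adjusted over the 3 pairs, p = 0.0429). By this test, which takes no account of odd or even replicate number, SESN1 and SESN2 each changed by more than SESN3. The SESN2 to SESN1 ratio averaged -0.19 ± 0.24 in RRM2_OE and -0.39 ± 0.25 in MOCK (SD, n = 4 each), and ran between -0.43 and 0.07 in RRM2_OE and between -0.67 and -0.14 in MOCK. Its difference of 0.19 did not pass (exact permutation p = 0.314), which does not show that the rises of SESN1 and SESN2 were alike. Within the 4 same-numbered pairs of libraries, the SESN2 to SESN1 ratio was higher in RRM2_OE by 0.17, 0.24, 0.21 and 0.15, so that 4 of 4 pairs went the same way (mean 0.19, SD 0.04). The SESN2 to SESN3 and SESN1 to SESN3 ratios were also higher in RRM2_OE in all 4 pairs. An exact two-sided sign-flip permutation test over the 16 arrangements of 4 pairs gave p = 0.125 for each of the 3 ratios, the smallest it can give, so this paired test could not pass for any of them.

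PHLDA3 had the largest fold change of the 9 genes tested. It encodes a small pleckstrin homology domain protein that competes with AKT for membrane phosphoinositides and so restrains AKT. PHLDA3 (ENSG00000174307, chromosome 1, 201434620 to 201438365, minus strand) had 35.2, 35.3, 36.9 and 31.3 CPM in RRM2_OE, against 16.8, 15.6, 15.8 and 13.9 CPM in MOCK. The groups were far apart, and replicate 4 was the lowest library in each. PHLDA3 was 2.23-fold higher in RRM2_OE (log2 1.16, SE 0.08, adjusted p = 2.91e-06, edgeR).

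Among the genes for enzymes, FDXR rose, and TIGAR and TP53I3 passed the test only in some fits. FDXR encodes the mitochondrial reductase that passes electrons of NADPH to ferredoxins for iron-sulfur cluster and steroid synthesis. FDXR (ENSG00000161513, chromosome 17, 72858619 to 72869156, minus strand), whose decamer is shown above, had 23.6, 27.04, 22.7 and 24.8 CPM in RRM2_OE, against 14.6, 13.4, 14.3 and 17.7 CPM in MOCK. The groups did not overlap, and MOCK replicate 4 came closest to the RRM2_OE libraries. FDXR rose by 0.71 on the log2 scale (SE 0.09, 1.63-fold, adjusted p = 4.14e-04, edgeR).

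TIGAR encodes a phosphatase that lowers fructose 2,6-bisphosphate, an activator of glycolysis, and favours the pentose phosphate pathway, a source of NADPH. TIGAR (ENSG00000078237, chromosome 12, 4430371 to 4462338, plus strand) had 19.98, 19.91, 19.1 and 22.1 CPM in RRM2_OE, against 17.6, 17.7, 17.7 and 14.96 CPM in MOCK. The groups did not overlap, but they lay close except for RRM2_OE replicate 4 at the top and MOCK replicate 4 at the bottom. The log2 fold change was 0.25 (SE 0.08, adjusted p = 0.0613, edgeR), which missed the threshold. With replicate number as a block it was 0.25 as well (adjusted p = 0.0147, edgeR), and it was 0.20 without MOCK replicate 4 (adjusted p = 0.155, edgeR). The difference was 0.14 in replicates 1 and 3 alone (adjusted p = 0.414, edgeR) and 0.36 in replicates 2 and 4 alone (adjusted p = 0.0142, edgeR).

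TP53I3, also named PIG3, encodes a quinone reductase-like enzyme linked to the formation of reactive oxygen species. TP53I3 (ENSG00000115129, chromosome 2, 24300303 to 24308731, minus strand) had 21.6, 22.8, 20.7 and 25.2 CPM in RRM2_OE, against 18.7, 19.6, 18.0 and 23.2 CPM in MOCK. MOCK replicate 4 was higher than 3 of the 4 RRM2_OE libraries, so the groups overlapped, although each RRM2_OE library was above the MOCK library of the same number. The log2 fold change was 0.18 (SE 0.09, adjusted p = 0.234, edgeR), and with replicate number as a block 0.18 (SE 0.07, adjusted p = 0.0422, edgeR). FAM228B, which overlaps TP53I3 on the opposite strand, was measured at up to 17.1 CPM and how strands were treated in counting is not stated in the labels.

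TP53INP1 rose by a small amount. Its product, induced by stress, acts in the nucleus with p53 and in the cytoplasm in autophagy. TP53INP1 (ENSG00000164938, chromosome 8, 95938200 to 95961639, minus strand) had 140.7, 146.7, 139.8 and 139.9 CPM in RRM2_OE, against 114, 126, 124 and 129 CPM in MOCK. All RRM2_OE libraries were above all MOCK libraries, with MOCK replicate 1 the lowest. The change was 0.20 on the log2 scale (SE 0.05, 1.15-fold, adjusted p = 0.0155, edgeR), so it would not pass a threshold of 0.01. NDUFAF6 overlaps it on the opposite strand, at up to 27.3 CPM.

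SPATA18, also named Mieap, encodes a protein of mitochondrial quality control, and was barely detected. SPATA18 (ENSG00000163071, chromosome 4, 52917497 to 52963458, plus strand) had 2, 2, 3 and 3 counts in RRM2_OE, against 0, 2, 0 and 0 counts in MOCK. The groups overlapped at 2 counts. The sums were 10 counts in RRM2_OE (95% exact Poisson interval 4.80 to 18.4) and 2 in MOCK (0.242 to 7.22). Per count sequenced, the ratio of RRM2_OE to MOCK was 4.92, with a 95% interval of 1.05 to 46.2 that covers counting error only and not the spread between libraries.

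ZMAT3 encodes a zinc finger protein that binds RNA and is known to act on splicing and transcript stability downstream of p53. ZMAT3 (ENSG00000172667, chromosome 3, 178735011 to 178790067, minus strand) had 104.5, 98.8, 104.8 and 99.9 CPM in RRM2_OE, against 81.0, 79.1, 82.6 and 80.0 CPM in MOCK. The groups were well apart, and in both replicates 1 and 3 were slightly above replicates 2 and 4. ZMAT3 rose by 0.34 on the log2 scale (SE 0.04, 1.26-fold, adjusted p = 3.26e-04, edgeR). Its SE was the smallest of the 9 genes.

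**Figure D2:**
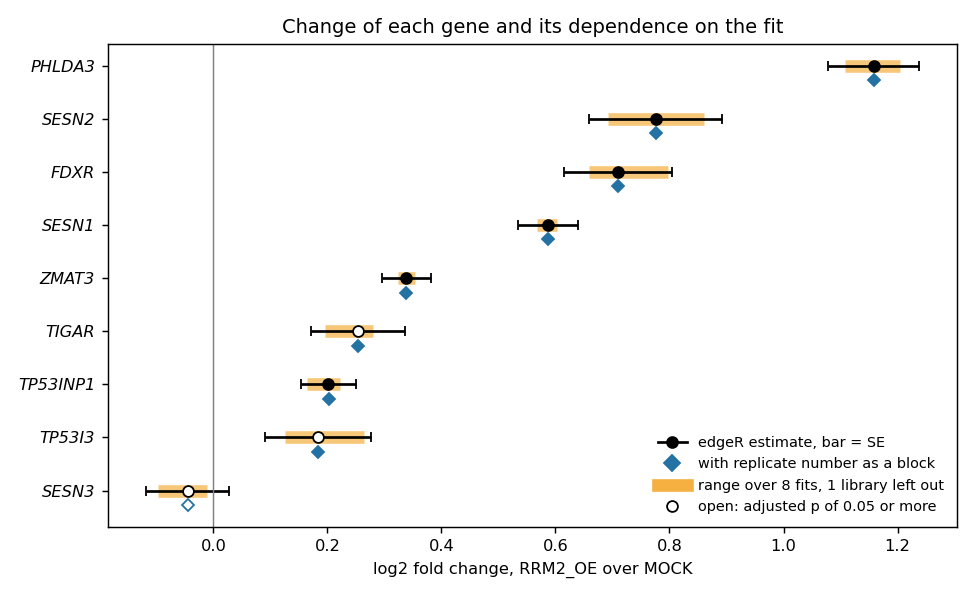
Log2 fold change of RRM2_OE over MOCK (horizontal axis) for the 9 genes tested, ordered by size, with the edgeR estimate and its SE in black, the estimate with replicate number as a block in blue, and in orange the range over 8 fits that each left out 1 library. Open symbols mark an adjusted p of 0.05 or more. PHLDA3 stands at 1.16, SESN3 at -0.04, and the block moved TIGAR and TP53I3 past the threshold without moving their estimates.

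Differences in level between the genes need a scale per exon length, for which the authors' RPKM values (reads per exon length and library size) were used. In RRM2_OE, TP53INP1 was the highest at 25.1 ± 0.83 RPKM, followed by PHLDA3 at 17.2 ± 1.07, SESN2 at 14.99 ± 1.84, TIGAR at 12.7 ± 0.91 and SESN1 at 11.5 ± 0.53 RPKM (mean ± SD, n = 4). ZMAT3 at 10.6 ± 0.18, TP53I3 at 9.81 ± 0.95, FDXR at 6.85 ± 0.61 and SESN3 at 3.72 ± 0.31 RPKM came next (mean ± SD, n = 4). The ranges of PHLDA3 and SESN2, SESN2 and TIGAR, TIGAR and SESN1, and ZMAT3 and TP53I3 overlapped, so those neighbours were not ordered beyond their spread. In MOCK, TP53INP1 was again the highest at 21.6 ± 1.48 RPKM, and TIGAR was next at 10.6 ± 0.73 RPKM (mean ± SD, n = 4). SESN2 at 8.68 ± 1.30, TP53I3 at 8.57 ± 1.12, ZMAT3 at 8.33 ± 0.20, PHLDA3 at 7.61 ± 0.47 and SESN1 at 7.60 ± 0.36 RPKM lay close together, above FDXR at 4.16 ± 0.58 and SESN3 at 3.79 ± 0.21 RPKM (mean ± SD, n = 4). There only TP53INP1 and TIGAR, ZMAT3 and PHLDA3, SESN1 and FDXR, and SESN3 and SPATA18 were neighbours with separate ranges. By its mean, PHLDA3 was thus second in RRM2_OE and sixth in MOCK. Its range overlapped that of SESN2 in RRM2_OE and those of SESN1, SESN2 and TP53I3 in MOCK, so these ranks are not fixed beyond the spread. SPATA18, at 0.0440 RPKM in RRM2_OE and 0.00887 RPKM in MOCK, was far below the other 9, which in MOCK lay between 3.79 and 21.6 RPKM. The median gene tested had 6.25 RPKM.

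**Figure D3:**
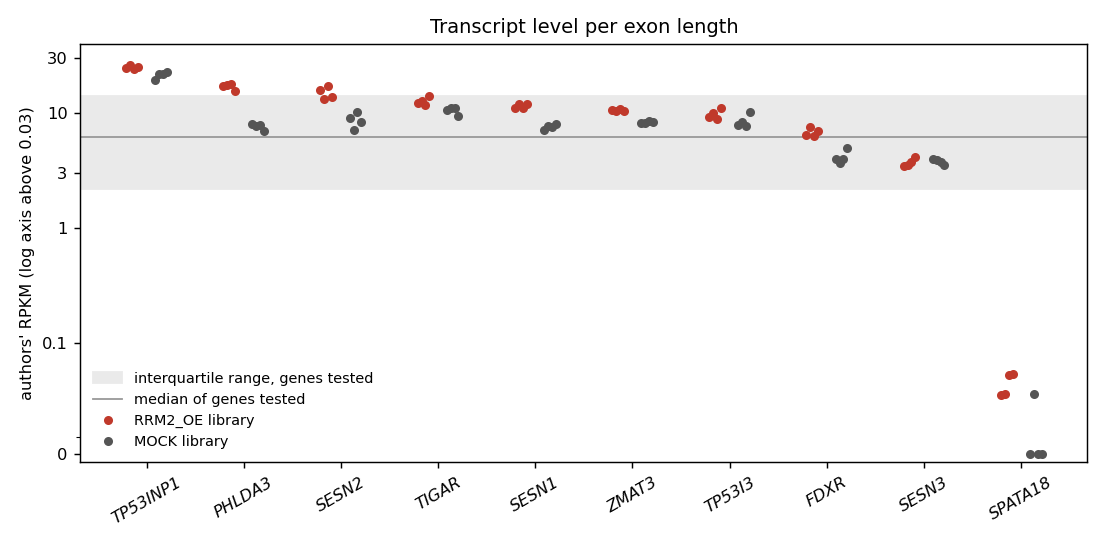
The authors' RPKM (vertical axis, logarithmic above 0.03 and linear below) of the 10 genes in each library, with RRM2_OE in red and MOCK in grey, beside the median (line) and interquartile range (band) of the genes tested. TP53INP1 is above the band in both groups, PHLDA3 lies above it in RRM2_OE and inside it in MOCK, and SPATA18 is far below it.

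In both groups, replicates 1 and 3 stood apart from replicates 2 and 4, and 30.4% of all genes tested differed between them in either direction. Earlier results of these same data had shown this split, so that share and the p-values for odd against even replicates describe it only. Among the 9 genes this split was passed by SESN2, higher in odd replicates (above), and by TP53I3, which was lower there by 0.20 on the log2 scale (SE 0.07, adjusted p = 0.0268, edgeR). The group difference itself was measured in each set. PHLDA3 differed between RRM2_OE and MOCK by 1.14 in odd and 1.17 in even replicates, SESN2 by 0.77 in odd and 0.79 in even, and SESN1 by 0.58 in odd and 0.60 in even, all on the log2 scale. FDXR differed by 0.68 in odd and 0.74 in even replicates, and ZMAT3 by 0.35 in odd and 0.32 in even. TIGAR differed by 0.15 in odd and 0.36 in even replicates, TP53INP1 by 0.24 in odd and 0.17 in even, TP53I3 by 0.21 in odd and 0.16 in even, and SESN3 by -0.12 in odd and 0.03 in even. A test of whether the group difference itself changed with odd or even number called none of the 9 genes (adjusted p = 0.9997 for each, edgeR). In edgeR it called 0 of the 15286 genes, with 491 at an unadjusted p below 0.05. Not passing this test does not show that the group differences were alike in odd and even replicates. The labels name no batch for this split.

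Regulators and other targets of p53 give the setting of these changes. Of 8 genes tested in a short list of p53 regulators, 3 were higher and 1 lower by edgeR, with a median log2 fold change of -0.03. With the replicate block 3 were higher and 3 lower. The 2 with the smallest adjusted p, both higher, were MDM2 and TP73. MDM2, the ubiquitin ligase that both restrains p53 and is its target, was at 263 to 303 CPM in RRM2_OE and at 135 to 146 CPM in MOCK (log2 1.03, adjusted p = 5.64e-07, edgeR). TP73, a p53 paralogue, was at 8.02 to 10.9 CPM in RRM2_OE and at 4.22 to 5.99 CPM in MOCK (log2 1.00, adjusted p = 6.22e-04, edgeR). Genes overlapping TP73 on the opposite strand reached 27.9 CPM and genes overlapping MDM2 reached 69.7 CPM, so both values carry that uncertainty. Of 27 other p53 targets tested, 22 were higher and 0 lower by edgeR, with a median log2 fold change of 0.57; 0 were lower also at an unadjusted p below 0.05, by DESeq2 or by limma-voom. MDM2 and GDF15, a stress cytokine with a log2 fold change of 1.54 (SE 0.10, adjusted p = 4.36e-06, edgeR), had the smallest p-values of that list. MDM2 and PPM1D, both higher, are also in the list of regulators and were counted in each list. Whether the marker shifts given in the opening had a part in the rises of both target lists was not tested.

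The pathways in which the 10 genes act are given next by counts from the same test, without the 10 themselves, beside the medians of their tested genes. In each list the named genes are the 2 with the smallest adjusted p, and any further ones were chosen after their values were seen. The background for these counts is 7.41% of all genes higher and 5.42% lower, and for counts with the replicate block it is 15.1% higher and 14.0% lower.

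Of 25 genes of the sestrin, GATOR and mTORC1 machinery tested, 1 was higher and 1 lower, with a median of -0.11 on the log2 scale. DDIT4, a stress-induced inhibitor of mTORC1, rose by 0.30 (SE 0.05, adjusted p = 0.00225, edgeR) and KICS2, a subunit of the KICSTOR complex that holds GATOR1 on lysosomes, fell by 0.63 (SE 0.12, adjusted p = 0.00461, edgeR). A gene opposite DDIT4 reached 143 CPM, beside 181 to 199 CPM of DDIT4 in RRM2_OE and 148 to 165 CPM in MOCK. KICS2 was at 4.78 to 6.43 CPM in RRM2_OE and at 7.60 to 8.87 CPM in MOCK. With the replicate block 3 of the 25 were higher and 10 lower, beside 15.1% and 14.0% of all genes. Without MOCK replicate 2, 2 genes were higher. Of 14 ATF4 targets, 9 were higher and 0 lower by edgeR, with a median of 0.41, and 0 were lower also at an unadjusted p below 0.05, by DESeq2 or by limma-voom. ATF4 is the transcription factor of the amino acid and stress response that also drives SESN2. PHGDH, the first enzyme of serine synthesis, rose by 0.97 (SE 0.08, adjusted p = 8.62e-06, edgeR) and TRIB3, a stress-induced pseudokinase, by 0.70 (SE 0.07, adjusted p = 3.96e-05, edgeR). Of 10 FOXO targets, 2 were higher and 1 lower, with a median of 0.05, whereas SESN3 itself was not called. They were the repressor gene BCL6 (0.54), KLF2 (0.72) and the lower KLHL24 (-0.33), and leaving out any of 6 single libraries (each RRM2_OE replicate, MOCK replicate 2 or MOCK replicate 4) left 1 higher.

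Of 10 genes of the AKT and PHLDA family, 1 was higher and 1 lower, with a median of 0.09. PHLDA1, a relative of PHLDA3, was at 118 to 126 CPM in RRM2_OE and at 92.4 to 106 CPM in MOCK, a rise of 0.30 (SE 0.05, adjusted p = 0.00227, edgeR), and genes on its opposite strand reached 31.5 CPM. AKT2, a kinase of the insulin response, fell by 0.20 (SE 0.05, adjusted p = 0.0109, edgeR). With the replicate block 3 were higher.

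Of 20 peroxiredoxin, thioredoxin and glutathione genes, 0 were higher and 1 was lower by edgeR's test, with a median of 0.05; 2 were higher at an unadjusted p below 0.05, and 0 by DESeq2 or limma-voom. That gene was CAT, encoding the peroxide-splitting enzyme catalase, at 829 to 940 CPM in RRM2_OE and at 1100 to 1271 CPM in MOCK (log2 -0.42, adjusted p = 7.37e-04, edgeR). With the replicate block 5 of the 20 were higher, beside 15.1% of all genes. Of 15 targets of NRF2, the main activator of antioxidant genes, 5 were higher and 1 lower, with a median of 0.05. AKR1B1, the aldose reductase, rose by 0.61 (SE 0.09, adjusted p = 7.17e-04, edgeR) and NQO1, a quinone reductase, by 0.29 (SE 0.06, adjusted p = 0.00537, edgeR). The other 3 were SLC7A11, HMOX1 and FTH1, which has pseudogene copies that can share its reads, and the lower gene was AKR1C1, which has close paralogues that can share its reads. Without RRM2_OE replicate 1, 2 NRF2 targets were higher, and 3 were without any 1 of the other RRM2_OE replicates, MOCK replicate 3 or MOCK replicate 4. AKR1C1 was not called without any 1 of RRM2_OE replicates 1, 3 and 4 or MOCK replicates 2, 3 and 4. In a list of quinone reductases and relatives of TP53I3, with 6 genes tested, NQO1 was higher. VAT1, a membrane protein related to TP53I3, was lower by 0.18 on the log2 scale (adjusted p = 0.0155, edgeR), but was not called without RRM2_OE replicate 2.

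Of 14 genes of fructose 2,6-bisphosphate and pentose phosphate metabolism, 0 were higher and 4 lower by edgeR's test, with a median of -0.07; 0 were higher also at an unadjusted p below 0.05, by DESeq2 or by limma-voom. FBP1, a phosphatase of glucose synthesis, was at 68.1 to 77.8 CPM in RRM2_OE and at 97.8 to 109 CPM in MOCK, and fell by 0.50 (SE 0.06, adjusted p = 1.40e-04, edgeR). TKT, the transketolase of the pentose phosphate pathway, fell by 0.24 (SE 0.04, adjusted p = 0.00220, edgeR), and PFKFB4 and TALDO1 were the other 2 lower genes. With the replicate block 1 of the 14 was higher and 5 lower, beside 15.1% and 14.0% of all genes. The odd/even term gave 1 higher and 6 lower. Of 15 genes of mitochondrial ferredoxins and iron-sulfur clusters, 1 was higher and 1 lower, with a median of -0.06. ISCU, the scaffold on which iron-sulfur clusters are built, rose by 0.38 (SE 0.05, adjusted p = 3.57e-04, edgeR), and SLC25A37, the mitochondrial iron importer mitoferrin-1, fell by 0.39 (SE 0.05, adjusted p = 3.98e-04, edgeR). With the replicate block 2 of the 15 were higher and 3 lower, close to the 15.1% and 14.0% of all genes, and without RRM2_OE replicate 2, 2 were lower.

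Of 22 genes of autophagy and mitophagy, the processes in which TP53INP1 acts and to which SPATA18 is related, 4 were higher and 1 lower, with a median of 0.10. MAP1LC3B, which coats autophagosomes, rose by 0.30 (SE 0.04, adjusted p = 9.28e-04, edgeR) and SQSTM1, a cargo receptor, by 0.25 (SE 0.04, adjusted p = 0.00173, edgeR). SQSTM1 was at 588 to 615 CPM in RRM2_OE and at 498 to 519 CPM in MOCK. MGAT4B and MRNIP, of which one reached 295 CPM, overlap SQSTM1 on the opposite strand. WIPI1 and DRAM1 were the other 2 higher genes, and ATG7 was the lower one. With the replicate block 10 were higher.

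**Figure D4:**
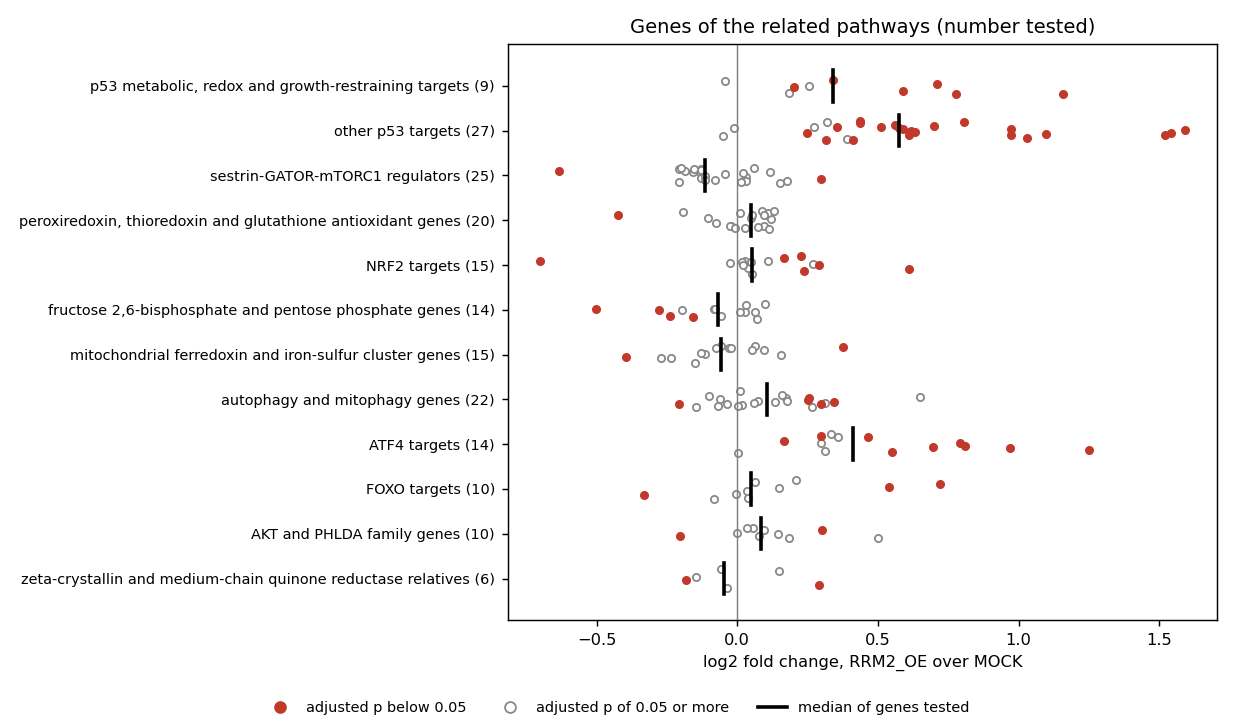
Log2 fold change of RRM2_OE over MOCK (horizontal axis) for each tested gene (points, jittered vertically) of the list described and of 11 related lists, with the number tested in parentheses, red for an adjusted p below 0.05, and a black bar at the median. The medians of the p53 target lists (0.34 and 0.57) and of the ATF4 targets (0.41) lie to the right of the other medians, which run between -0.11 and 0.10.

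Among 10529 genes with a gene symbol and a mean of at least 5 CPM, the 3 whose log2 CPM over the 8 libraries was most like the mean of the 9 standardized profiles were CYP1B1, a cytochrome P450 (Pearson's r = 0.994), CD101, a surface protein of leukocytes (0.993), and IL13RA1, a cytokine receptor chain (0.991). The 8 libraries share their group, so the likeness rests mainly on the difference between RRM2_OE and MOCK. Once each group's mean was subtracted, the r over the 8 libraries was 0.78 for CYP1B1, 0.65 for CD101 and 0.60 for IL13RA1. These genes were picked by their r over the same libraries, so the remaining r is a description and not separate evidence of likeness.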

How the data were processed

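Stranded poly(A) libraries were made from 200 ng of total RNA, per the labels' protocols. The genome build hg19 (GRCh37) and the tools HTSeq 0.11.2, TopHat2 and bcl2fastq 2.18.0.12 are listed, without roles, per the submitters' processing notes. The sources used here do not give the annotation or the strand setting. The authors deposited whole-number read counts and RPKM values per Ensembl gene with exon lengths; their RPKM was recomputed from the counts to within 4.7e-06. Groups and replicate numbers came from the labels.

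The count test was that of edgeR 4.0.16 under R 4.3.3 (filterByExpr, TMM, robust quasi-likelihood F test, no covariate, Benjamini-Hochberg over 15286 genes, threshold 0.05). SEs were derived from the F statistic (log2 fold change divided by its square root), and CPM uses TMM-scaled library sizes. The test was also run on simulated counts, which were drawn without the odd/even split and so do not cover it. Symbols were matched for 24496 IDs, and 237 of 240 listed genes were found; CASTOR2, SOD2 and TXNIP were not analysed here. The 10 genes and the lists were chosen with earlier results of these data known. Named by rule were the 10 genes, RRM2, MDM2, CDKN2A, 2 genes per list and 3 of like pattern; 1 further gene under this rule is left unreported. Of the 21 list genes named by rule, 9 overlap a gene of the opposite strand and 3 one of their own strand; of the 10 genes described, 4 do on the opposite strand and 0 on the same. Promoter stretches are from RefSeq (GRCh38.p14), all other coordinates from the deposited tables (hg19).

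Replicate numbers are shared by the groups in the labels, which do not say what they mark. After each group's mean was subtracted, log2 CPM correlated between same-numbered libraries at 0.25, 0.23, 0.22 and 0.23. Between the groups, libraries with both odd or both even numbers correlated at 0.22 to 0.29 and the others at -0.28 to -0.21. Only 1 of 8 correlated best with its own number, so the correlations followed odd or even number and did not single out same-numbered pairs. The replicate block and the same-numbered pairs rest on the shared numbers of the labels alone. Alternatives were RLE factors, library sizes only, DESeq2 1.42.0, limma-voom and limma 3.58.1 on log2(RPKM + 1) and log2(RPKM + 0.1), other filters, a replicate block, an odd/even term, each pair of like-numbered replicates alone, a threshold of 0.01, and leaving out each library.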

Additional observations from a re-analysis of the deposited data

Results flagged for a closer look

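In 74 groups of 4 libraries, from 37 genes, 3 held a library far from the other 3 by Dixon's gap test, which chance does in about 5% of groups. TIGAR was at 14.96 CPM in MOCK replicate 4, and the next MOCK library was at 17.6 CPM. TP53INP1 was at 146.7 CPM in RRM2_OE replicate 2, with the next at 140.7 CPM. GDF15 was at 30.4 CPM in MOCK replicate 1, with the next at 22.6 CPM. Without these libraries the log2 fold change of TIGAR was 0.20 and that of TP53INP1 was 0.18 (adjusted p = 0.0473, edgeR), which still passed.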

How the results depend on the processing

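Over 21 alternatives, SESN1 (log2 fold change 0.54 to 0.60), SESN2 (0.69 to 0.86), FDXR (0.61 to 0.80), ZMAT3 (0.32 to 0.35) and PHLDA3 (1.08 to 1.20) were higher in RRM2_OE in all 21, and SESN3 was called in none (-0.12 to 0.03). TP53INP1 was called in 20, the exception being the threshold of 0.01 (0.20, adjusted p = 0.0155, edgeR). TIGAR was called in 5: with the replicate block (0.25, adjusted p = 0.0147) and the odd/even term (0.25, adjusted p = 0.00847), in replicates 2 and 4 alone (0.36, adjusted p = 0.0142), and on log2(RPKM + 1) (0.25, adjusted p = 0.0439) and log2(RPKM + 0.1) (0.27, adjusted p = 0.0439, limma). TP53I3 was called in 2, with the block (0.18, adjusted p = 0.0422) and the odd/even term (0.18, adjusted p = 0.0434, edgeR). The block changed no other call among the 9 genes. Within the 4 pairs of libraries, an exact sign-flip test chosen after seeing the data gave the same sestrin differences (SESN2 to SESN3 0.82, SESN1 to SESN3 0.63), but its smallest possible p is 0.125. Over all genes, 1133 were higher and 829 lower; with the block these counts were 2303 and 2143, with the odd/even term 2427 and 2277, and at the threshold of 0.01 they were 530 and 281. Genes called lower were 1330 in replicates 1 and 3 alone, 463 on log2(RPKM + 1) and 453 on log2(RPKM + 0.1), and 542 to 607 with 1 library left out, the lowest without MOCK replicate 2 (542) and without RRM2_OE replicate 1 or 3 (545 each). Rises were 57.7% of the calls on counts and 68.7% and 68.8% on those RPKM scales. In the related lists and a short list of p53 regulators, 44 different genes were higher and 13 lower; the block gave 67 and 27, the odd/even term 69 and 30, and the threshold of 0.01 left 8 lower. Of 504 list counts under an alternative, 67 moved by over 1.5 times, and 10 of 240 list medians moved by more than their spread. The cause of these shifts was not tested. Depth limits SPATA18 most, at 0 to 3 counts in each library.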
